A study of Mus musculus with 24 samples.

Results

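Transcripts of 9 enzymes that salvage or oxidise adenine and other purines were followed in mouse kidney: Aprt, Hprt, Adk, Ampd2, Ampd3, Pnp, Gda, Xdh and Uox. They were chosen by name, and all 9 were found among the 35460 genes to which a transcript could be assigned. All 9 also passed the filter on low counts in every comparison, although Uox did so in those with chow only through the adenine libraries. RNA was sequenced from 24 kidney libraries of 2 experiments. In the knockout experiment, 4 libraries came from chow-fed mice, 6 from Cre-negative wild-type mice on an adenine diet and 6 from mice labelled ENPP1 knockout on the same diet. The knockout combined ENPP1 fl/fl alleles with the CAG-ERCre transgene, whose broadly active promoter is not limited to the kidney, and deletion was induced with tamoxifen. In the antibody experiment, every mouse ate the adenine diet and received either an hENPP1 monoclonal antibody (4 libraries) or control IgG (4 libraries) at 50 mg/kg into the peritoneum, with 2 injections per week. The diet lasted 14 days in both experiments. Strain, sex, age, the genotype of the chow mice and tamoxifen in the control mice were stated in neither the labels nor the design text. Nor was it stated whether the antibody-treated mice carried human ENPP1. Comparisons with chow may thus include a difference of genotype. Labelled knockout and wild-type mice on adenine also differed in Cre and may have differed in tamoxifen. Nothing in the labels ties libraries to animals, and p-values measure the spread between these libraries.

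Adenine is salvaged by adenine phosphoribosyltransferase (Aprt), which joins it to a phosphorylated ribose to make AMP. Adenine that escapes salvage can be oxidised by xanthine dehydrogenase (Xdh) to dihydroxyadenine, a poorly soluble product that crystallises in renal tubules, and this is the basis of the adenine diet as a kidney injury model. Xdh also turns hypoxanthine and xanthine into urate, which urate oxidase (Uox) degrades in most mammals, chiefly in liver. The remaining enzymes set how much purine reaches these ends: kinases and phosphoribosyltransferases return it to nucleotides, while deaminases and the phosphorylase send it towards xanthine.

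Promoter sequence was available from RefSeq (GRCm38.p6) for 8 of the 9 genes, in 12 promoters; Xdh was the exception. Shown here are the 250 bases before the transcription start of the genes with the largest fall (Adk), the adenine-specific salvage step (Aprt) and the AMP deaminase Ampd2, which rose. Adk has 2 promoters, and they are shown together because the start of Adk-201 lay at the end of the upstream window and that of Adk-207 at the end of the downstream window, so that the 2 transcripts differ in their promoter. All are written 5′ to 3′ on the strand of the gene, with matches to the motifs below in capitals.
Adk, upstream, chr14:21052324-21052573, plus strand: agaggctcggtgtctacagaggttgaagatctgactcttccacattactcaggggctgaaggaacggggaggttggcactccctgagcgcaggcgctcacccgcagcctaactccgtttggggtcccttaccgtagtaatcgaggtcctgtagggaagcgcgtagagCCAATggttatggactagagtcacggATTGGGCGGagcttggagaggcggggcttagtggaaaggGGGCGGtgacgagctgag
Adk, downstream, chr14:21075902-21076151, plus strand: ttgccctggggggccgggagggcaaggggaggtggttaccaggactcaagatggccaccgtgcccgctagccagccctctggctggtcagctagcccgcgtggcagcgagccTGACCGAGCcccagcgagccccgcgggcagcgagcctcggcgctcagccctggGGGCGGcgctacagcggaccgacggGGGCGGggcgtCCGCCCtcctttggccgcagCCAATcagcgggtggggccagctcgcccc
Aprt, chr8:122576908-122577157, minus strand: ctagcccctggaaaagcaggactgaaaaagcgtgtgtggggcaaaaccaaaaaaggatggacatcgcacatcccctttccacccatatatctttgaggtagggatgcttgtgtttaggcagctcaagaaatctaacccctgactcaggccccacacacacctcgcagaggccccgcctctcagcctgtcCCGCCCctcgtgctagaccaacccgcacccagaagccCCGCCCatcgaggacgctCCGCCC
Ampd2, chr3:108085403-108085652, minus strand: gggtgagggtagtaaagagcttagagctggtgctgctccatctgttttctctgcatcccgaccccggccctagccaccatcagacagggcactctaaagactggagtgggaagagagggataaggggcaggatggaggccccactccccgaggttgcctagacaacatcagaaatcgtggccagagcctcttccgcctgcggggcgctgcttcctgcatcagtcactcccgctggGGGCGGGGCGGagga

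The motifs were searched on both strands. The GC box (GGGCGG) occurred 2 times in the upstream Adk promoter, 3 times in the downstream Adk promoter, 3 times in the Aprt promoter and 2 times, overlapping, in this Ampd2 promoter. Of 32851 mouse promoters of the same length, 32.7% held it. A CCAAT box (CCAAT) was present 2 times in the upstream and 1 time in the downstream Adk promoter, against 33.8% of all promoters holding it; the match nearer to the upstream start overlapped a GC box. The letters of the NRF2 element (TGACNNNGC) were found in the downstream Adk promoter and in 10.2% of all promoters. An E-box (CACGTG), held by 6.02% of all promoters, was found among the members only in 1 of the 3 promoters of Ampd3, and the palindromic HNF1 motif, held by 0.00913%, was in none of the 12. The GC box was shared by Adk, Aprt and Ampd2, whose levels moved in different directions.

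Library totals were 21164187 to 28350038 reads in the knockout experiment and 44080791 to 50813749 in the antibody experiment. Values below are CPM, read counts scaled to library size, after TMM scaling, a factor per library that balances most genes, computed within each experiment, so levels are not compared between experiments. Enpp1 averaged 22.0 CPM in wild-type and 22.7 CPM in labelled knockout mice on adenine (log2 change 0.05 ± 0.051 (SE), adjusted p = 0.465). The exons removed by the deletion are not stated in the labels, so this level does not check the label, and the group is called labelled knockout throughout. Markers of the proximal tubule, the bulk of the renal cortex, were present in every library and moved with diet and treatment: their sum was 29005 to 31448 CPM on chow, 2451 to 4640 in wild-type mice on adenine, 6701 to 11957 in labelled knockouts, 4746 to 8833 with IgG and 16818 to 25392 with antibody. In whole kidney, fewer cells of a type and less RNA per cell cannot be told apart.

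The question of the diet comparison was what the adenine load did to the enzymes that handle adenine. In wild-type mice, 5 of the 9 genes were higher on adenine than on chow (Uox, Ampd3, Ampd2, Xdh and Gda), 3 were lower (Adk, Pnp and Aprt) and Hprt was not called. The 5 include Uox, which passed the filter on low counts only through the adenine libraries. Over all 16965 genes tested, 84.9% were called at an adjusted p under 0.05 (44.0% higher, 40.9% lower), so the count of 8 of 9 is near the background. The groups overlapped for Hprt and Gda, and the share of all genes with overlap was not computed. The median log2 change was 0.24 over the 9 genes and 0.07 over all genes.

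**Figure D1:**
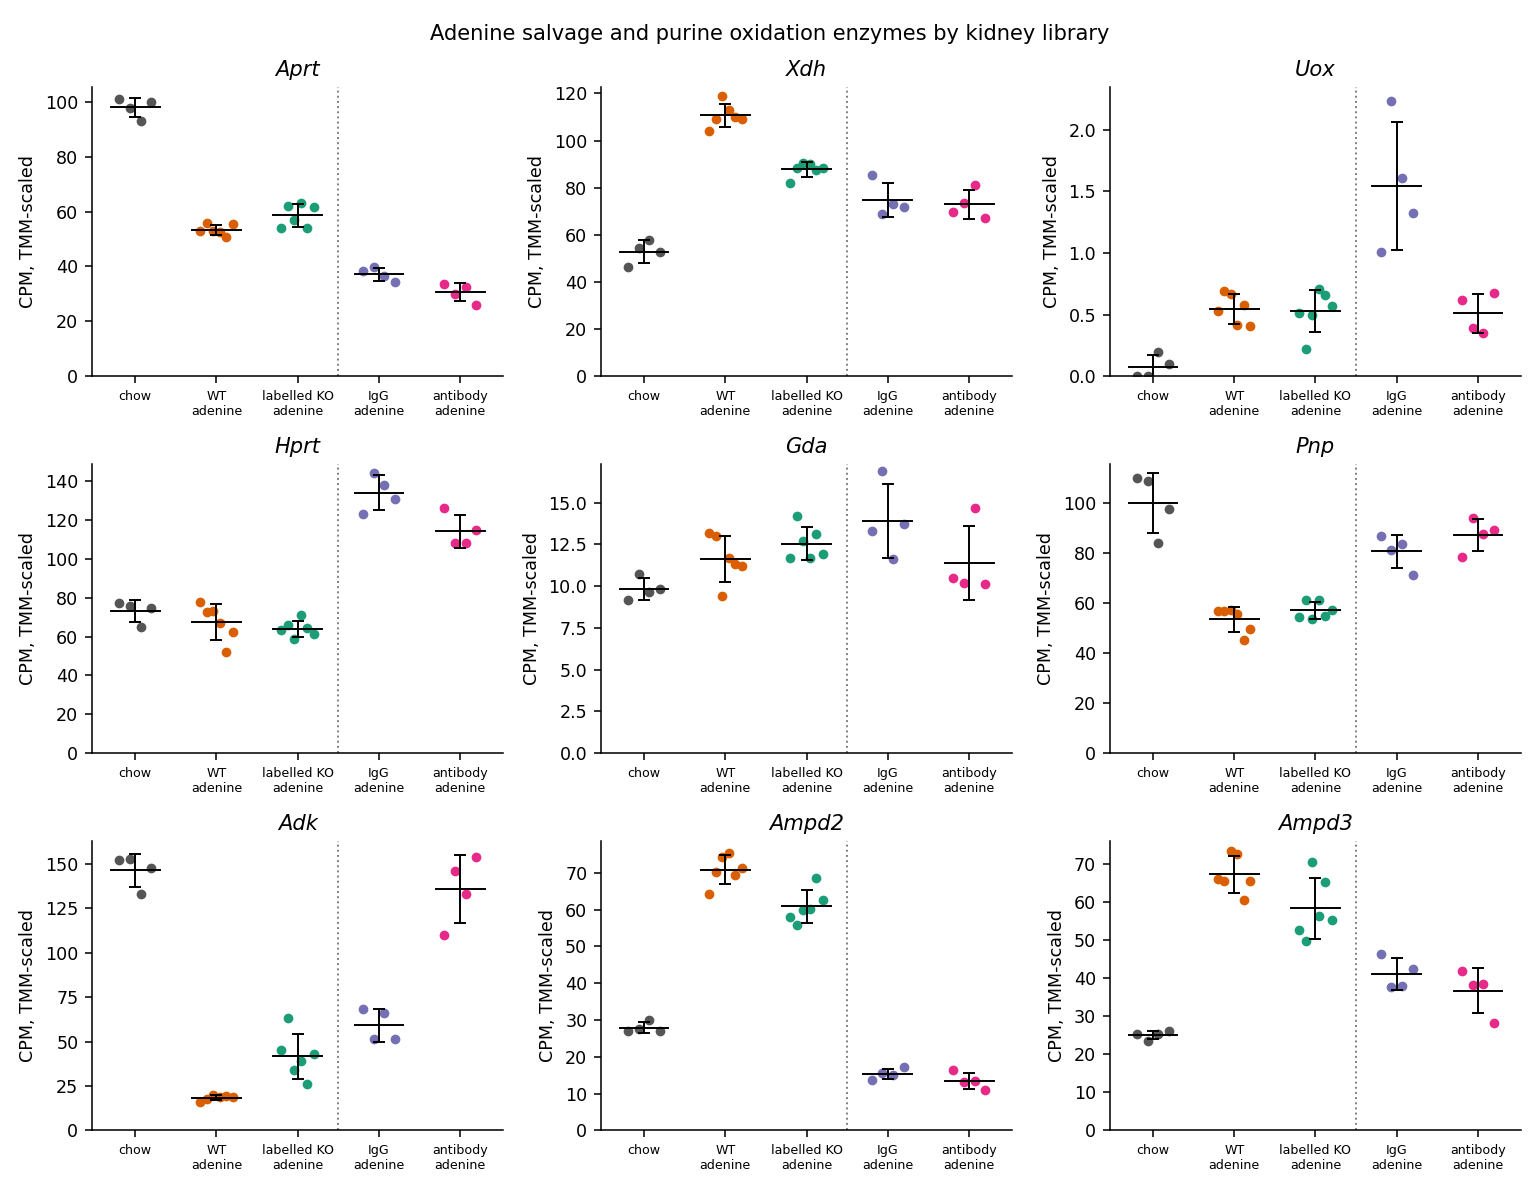
Level of each of the 9 enzymes (CPM, vertical axis from 0) in every library, by group; points are libraries, bars the mean and SD, and the dotted line separates the experiments, which were scaled separately. Adk stands at 133 to 153 CPM on chow and 16.2 to 19.9 CPM in wild-type mice on adenine, while Xdh goes from 46.4 to 58.0 up to 104 to 119 CPM.

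For salvage of the adenine base, the RNA of Aprt was measured, not the activity of the enzyme. The chow libraries held 101, 97.9, 93.0 and 100 CPM of Aprt. In wild-type mice on adenine the lowest value was 50.9, the median 53.0 and the highest 55.8 CPM. Every adenine library lay below every chow library. The log2 change was -0.87 ± 0.051 (SE, adjusted p = 6.33e-12), or 1.83-fold lower, whereas on the deposited TPM scale it was 0.27 (adjusted p = 0.00455), under a median change of all genes of 0.90 on that scale. The direction of Aprt thus depends on the scale on which libraries are set equal, and in both cases it lay below the median gene.

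For oxidation, the RNA of Xdh was measured, again without enzyme activity, and on the CPM scale it moved the other way. Its chow libraries held 46.4, 54.4, 58.0 and 52.7 CPM. On adenine, the lowest wild-type value was 104, the median 109 and the highest 119 CPM, so the groups were well separated. Xdh rose by 1.06 ± 0.057 on the log2 scale (adjusted p = 1.6e-12), or 2.09-fold.

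Because a ratio of 2 genes in the same library does not depend on scaling between libraries, the TPM of Aprt was divided by that of Xdh in each library. TPM is a length-corrected abundance. The chow libraries had ratios of 7.68, 6.87, 6.26 and 8.99. Wild-type mice on adenine ranged from 1.90 to 2.40 with a median of 2.17. The adenine diet was thus accompanied by a 3.39-fold lower ratio of Aprt to Xdh, a log2 difference of -1.76 (exact permutation test, two-sided, p = 0.00476, the smallest that 4 against 6 libraries can give, adjusted over 4 comparisons, 0.00635). Each gene is a sum over its transcripts. These include forms not annotated to encode the full enzyme, whose shares changed with the diet, as described below.

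**Figure D2:**
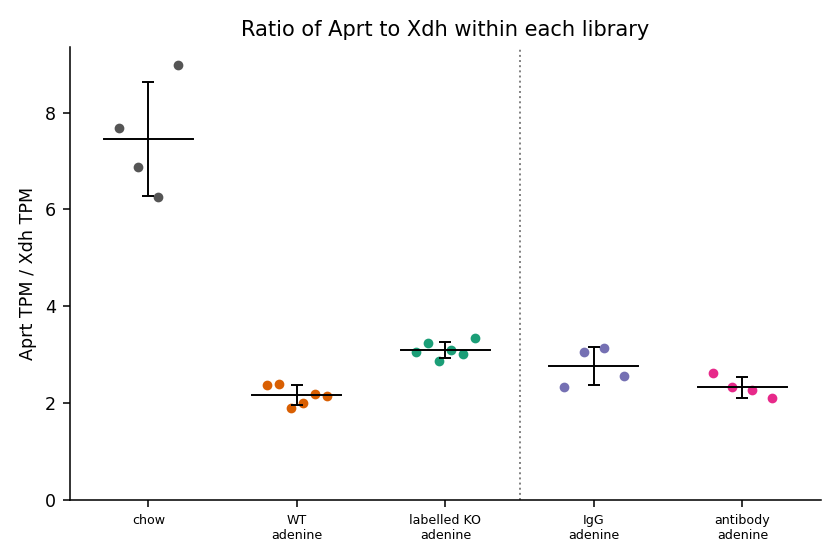
Ratio of Aprt TPM to Xdh TPM (vertical axis from 0) in each library, by group; points are libraries, bars the mean and SD. The chow libraries lie at 6.26 to 8.99, the wild-type adenine libraries at 1.90 to 2.40 and the labelled knockout libraries at 2.88 to 3.34, with no overlap among these 3 groups.

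Adk, adenosine kinase, which phosphorylates adenosine to AMP, had the largest fall of the 9. The 4 chow libraries held 152, 153, 133 and 148 CPM. The wild-type adenine libraries held 16.2 at the lowest, 18.8 at the median and 19.9 at the highest. The separation was complete, with a log2 change of -2.99 ± 0.16 (adjusted p = 1.29e-12), or 7.93-fold lower. Both transcripts that start at the promoters printed above took part: Adk-201 averaged 120 CPM on chow and 13.4 CPM on adenine, and Adk-207 averaged 23.6 and 3.30 CPM. The share of Adk reads assigned to Adk-201 was 81.5% on chow and 71.5% on adenine, and this shift did not pass (exact permutation p = 0.162, adjusted p = 0.28). All 10 proximal tubule markers fell with Adk in this comparison, and their part in its change was not tested.

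AMP deaminase converts AMP to IMP and so opens the route from adenine nucleotides to hypoxanthine; Ampd2 and Ampd3 encode different isozymes, the latter being the form of red blood cells. Ampd2 stood at 26.9, 27.5, 30.0 and 26.9 CPM on chow and from 64.3 through a median of 70.8 to 75.3 CPM in wild-type mice on adenine. Ampd3 stood at 25.4, 23.5, 25.2 and 26.1 CPM on chow and from 60.6 through 65.8 to 73.4 CPM on adenine. Neither gene's groups overlapped. Ampd2 rose by 1.35 ± 0.062 (adjusted p = 2.04e-13) and Ampd3 by 1.42 ± 0.089 (adjusted p = 1.72e-11) on the log2 scale. Red blood cell markers went down while Ampd3 went up: 5 of 5 tested were lower, their sum being 1072 to 1296 CPM on chow and 12.5 to 35.7 CPM on adenine. Macrophage markers were higher in 7 of 8, with sums of 117 to 127 CPM on chow and 248 to 329 CPM on adenine, and their part in the rises was not tested.

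Pnp, purine nucleoside phosphorylase, which splits inosine and guanosine into base and ribose phosphate, held 110, 109, 84.1 and 97.8 CPM on chow. On adenine it ranged from 45.4 through 56.3 to 57.2 CPM, with no overlap. It fell by 0.90 ± 0.077 on the log2 scale (adjusted p = 1.94e-09), while on the TPM scale it was 0.16 higher (adjusted p = 0.21). The neighbouring near-identical gene Pnp2 reached at most 0.869 CPM in any library, and with the 2 genes summed the change was -0.89. Hprt, which salvages hypoxanthine and guanine, held 64.7 to 77.5 CPM on chow and 51.9 to 77.9 CPM on adenine, so that the chow libraries lay within the adenine range. Its log2 change was -0.12 with a 95% interval of -0.30 to 0.07 (adjusted p = 0.224); on the TPM scale it was 0.75 and with upper-quartile scaling 0.11, so no direction can be given.

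Gda, guanine deaminase, which makes xanthine from guanine, was low: 9.16, 10.7, 9.64 and 9.83 CPM on chow, and 9.42 through 11.5 to 13.2 CPM on adenine. The groups overlapped, and the log2 change of 0.24 ± 0.09 passed narrowly (adjusted p = 0.0175); with effective transcript length as an offset it did not (adjusted p = 0.073). Uox was close to the limit of detection. The chow libraries held 0, 0, 0.198 and 0.101 CPM, which was 6 reads in all, and wild-type adenine libraries held 0.409 through 0.551 to 0.690 CPM, 86 reads in all. The ratio was 7.30 with an exact 95% counting interval of 3.22 to 20.4, which covers counting error only, and the adjusted p was 0.000102. Uox passed the filter on low counts here only through the adenine libraries, as no chow library held more than 4 reads. Its call as higher was thus not independent of the filter. Of markers of hepatocytes, the main site of Uox, 5 of 7 tested were lower on adenine and 2 higher, with sums of 188 to 220 CPM on chow and 80.6 to 103 CPM on adenine. Alb, the albumin gene, was 17.0 to 18.4 CPM on chow and 0.413 to 1.76 CPM on adenine. The 2 higher ones were Serpina1a (7.13 to 10.3 CPM on chow, 18.5 to 23.1 on adenine) and Fgb (1.53 to 2.64 and 24.4 to 44.3). Cps1 stayed at or under 0.0524 CPM in every library, and the part of hepatocytes in the Uox reads was not tested.

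Levels of different genes can be set side by side only per length. In CPM per kilobase of effective transcript length, the chow order was Aprt (165), Adk (113), Hprt (68.0), Pnp (67.1), Xdh (22.5), Ampd2 (9.53), Ampd3 (6.72), Gda (1.89) and Uox (0.034), and Hprt and Pnp overlapped in that order. In wild-type mice on adenine the order became Aprt (110), Hprt (63.7), Xdh (50.7), Pnp (41.2), Ampd2 (28.8), Ampd3 (18.1), Adk (16.9), Gda (2.24) and Uox (0.276). There Hprt overlapped Xdh, Xdh overlapped Pnp, and Ampd3 overlapped Adk. Adk went from the place below Aprt to the place below Ampd3, and Xdh moved up past Pnp.

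The next question was whether loss of ENPP1, an ectoenzyme that splits ATP outside cells, changed this picture. Between labelled knockout and wild-type mice on adenine, 2 of the 9 genes were higher (Adk and Aprt) and 3 lower (Xdh, Ampd2 and Ampd3). Over all genes 46.4% were called (25.1% higher, 21.3% lower), so 5 of 9 is again near the background. The groups of Adk and Xdh did not overlap, and the share of all genes without overlap was not computed. Adk in labelled knockouts ranged from 25.9 through 41.0 to 63.4 CPM, every library above the wild-type maximum of 19.9 and below the chow minimum of 133. It rose by 1.17 ± 0.14 on the log2 scale (adjusted p = 3.66e-06), or 2.26-fold. All 10 proximal tubule markers were higher in the labelled knockouts too, and their part in this rise was not tested.

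Xdh in labelled knockouts ranged from 81.9 through 88.4 to 90.3 CPM, wholly below the wild-type range. The log2 change was -0.33 ± 0.048 (adjusted p = 2.14e-05). Ampd2 (55.7 to 68.6 CPM) was lower by a log2 change of -0.22 ± 0.051 (adjusted p = 0.00187), with overlap. Both comparisons use the wild-type adenine libraries, so the levels are given side by side: on chow, in wild type on adenine and in labelled knockouts, Adk averaged 147, 18.5 and 41.7 CPM, Xdh 52.9, 111 and 87.8 CPM, and Ampd2 27.8, 70.8 and 60.8 CPM. Over the 9 enzymes, the mean of the labelled knockouts lay between those of the other groups in 7 and outside them in 2, Hprt (73.2, 67.5 and 64.0 CPM) and Gda (9.83, 11.6 and 12.6 CPM). The share of all genes lying between was not computed, so the count of 7 has no background. Pnp and Uox, among the 7, were not called between labelled knockout and wild type. The 2 smaller calls were less firm: Aprt changed by 0.13 (adjusted p = 0.0255) and lost its call under upper-quartile scaling (adjusted p = 0.183), under the length offset (adjusted p = 0.522) and on leaving out any of 4 libraries (adjusted p up to 0.0681), and it was -0.06 on the TPM scale. Ampd3 changed by -0.21 (adjusted p = 0.0264) and lost its call with the length offset (adjusted p = 0.0681), in a fit of the 2 groups alone (adjusted p = 0.0564) and without any of 6 libraries (adjusted p up to 0.0761).

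Hprt, Pnp, Gda and Uox were not called between labelled knockout and wild type. The 95% intervals of their log2 changes were -0.24 to 0.09 for Hprt, -0.05 to 0.24 for Pnp, -0.05 to 0.27 for Gda and -0.72 to 0.59 for Uox, so a difference in Uox within that range was not detectable at this depth. The Aprt to Xdh ratio was 3.11 ± 0.164 (SD, n = 6) in labelled knockouts against 2.17 ± 0.198 (SD, n = 6) in wild type, a log2 difference of 0.52 (exact permutation p = 0.00216, the smallest possible; adjusted p = 0.00635). It was higher in 6 of 6 labelled knockout libraries than in any wild-type library, and remained 2.37-fold below chow (log2 difference -1.24, exact permutation p = 0.00476, adjusted p = 0.00635).

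Against chow, the labelled knockouts on adenine had 5 genes higher and 3 lower, with 80.1% of all genes called (40.2% higher, 39.9% lower). Uox, among the 5 higher, passed the filter on low counts only through the adenine libraries. Its call was thus not independent of the filter. This comparison shares its chow libraries with the wild-type one. The log2 changes were -1.81 for Adk, -0.81 for Pnp, -0.74 for Aprt, 0.35 for Gda, 0.73 for Xdh, 1.13 for Ampd2, 1.22 for Ampd3 and 2.72 for Uox, and Hprt was at -0.19 (adjusted p = 0.0529). On the TPM scale, where the median gene was at 0.76, Aprt was at 0.21, Pnp at 0.16 and Hprt at 0.59. Adk was thus the gene whose distance from chow differed most between the 2 adenine groups.

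**Figure D3:**
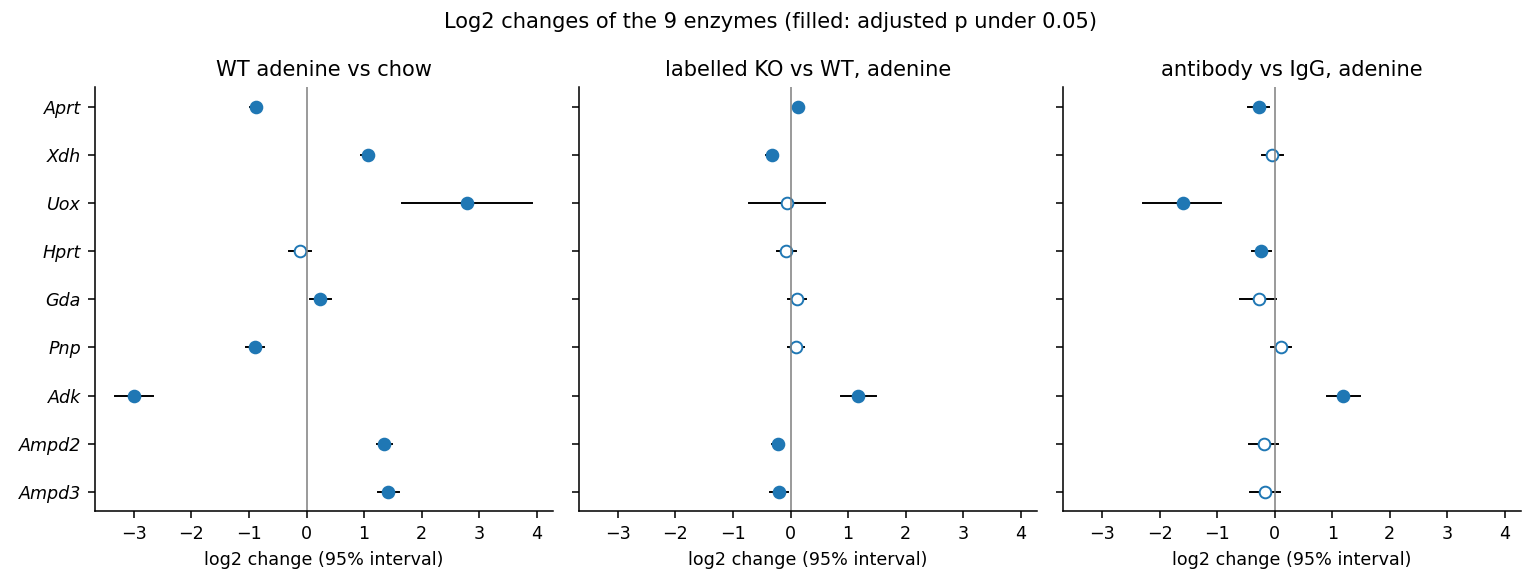
Log2 change of each enzyme with its 95% interval (horizontal axis) in wild-type adenine against chow, labelled knockout against wild type on adenine, and antibody against IgG on adenine; filled points have an adjusted p under 0.05. Adk lies at -2.99, 1.17 and 1.19 in the 3 panels, and Uox at 2.79, -0.07 and -1.60.

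The antibody experiment asked the same of an antibody to ENPP1. With antibody against IgG, Adk was higher and Uox, Aprt and Hprt were lower, 4 of 9 genes, against 55.3% of all 16410 genes called (27.2% higher, 28.0% lower). Adk held 68.5, 51.2, 66.1 and 51.4 CPM with IgG and 110, 146, 133 and 154 CPM with antibody. The groups were far apart, with a log2 change of 1.19 ± 0.13 (adjusted p = 7.07e-05), or 2.29-fold. Adk-201 went from 53.8 to 122 CPM and Adk-207 from 2.53 to 10.7 CPM on average. The 10 proximal tubule markers were all higher with antibody, and their part in the rise was not tested.

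Uox held 1.01, 2.23, 1.61 and 1.32 CPM with IgG and 0.618, 0.394, 0.352 and 0.672 CPM with antibody, with no overlap. That was 332 reads against 83, a ratio of 0.321 with an exact 95% counting interval of 0.249 to 0.409, and a log2 change of -1.60 ± 0.31 (adjusted p = 0.00129). Of 7 hepatocyte markers tested, 6 were higher with antibody and none was lower, with sums of 557 to 765 CPM against 180 to 366 CPM with IgG. Their part in the change of Uox was not tested.

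Aprt held 38.3, 39.8, 36.4 and 34.3 CPM with IgG and 33.6, 30.1, 32.4 and 26.1 CPM with antibody. The groups did not overlap, but the step between them was small, with a log2 change of -0.28 ± 0.085 (adjusted p = 0.0154, and 0.0609 without 1 of the libraries). Hprt held 123, 144, 138 and 131 CPM with IgG and 126, 108, 108 and 115 CPM with antibody, which overlapped. Its log2 change of -0.23 ± 0.075 (adjusted p = 0.0245) lost its call with the replicate number as a block (adjusted p = 0.0733), with the length offset (adjusted p = 0.057) and without any of 4 libraries. Proliferating cell markers were lower with antibody in 7 of 7 and macrophage markers in 8 of 8, with sums of 128 to 174 against 207 to 259 CPM and 126 to 184 against 246 to 441 CPM, and their part in these falls was not tested.

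The other 5 enzymes were not called with antibody. The 95% intervals of the log2 changes were -0.22 to 0.15 for Xdh, -0.45 to 0.06 for Ampd2, -0.42 to 0.09 for Ampd3, -0.06 to 0.29 for Pnp and -0.60 to 0.03 for Gda. On the TPM scale, where the median gene was at -0.23, Xdh was called lower (-0.35, adjusted p = 0.0272). Upper-quartile scaling gave lower calls for Ampd2 (-0.35, adjusted p = 0.0274), Ampd3 (-0.32, adjusted p = 0.0382) and Gda (-0.44, adjusted p = 0.0247). The Aprt to Xdh ratio was 2.77 ± 0.389 (SD, n = 4) with IgG and 2.33 ± 0.217 (SD, n = 4) with antibody, and the log2 difference of -0.24 did not pass (exact permutation p = 0.143, adjusted p = 0.143; the smallest possible p was 0.0286).

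Whether the labelled knockout and the antibody acted differently on these genes was tested directly, as the change in the former minus the change in the latter; over all genes 37.9% of 17119 differed. The intervention and the experiment cannot be told apart here. Of the 9 differences, 3 passed: Aprt by 0.34 ± 0.088 (adjusted p = 0.00477), Xdh by -0.37 ± 0.083 (adjusted p = 0.00153) and Uox by 1.46 ± 0.40 (adjusted p = 0.0067). Xdh lost its call on the TPM scale (adjusted p = 0.185), and Uox lost it there (adjusted p = 0.0701) and with the length offset (adjusted p = 0.0775). For Adk, which rose in each, the difference was -0.10 with a 95% interval of -0.58 to 0.38 (adjusted p = 0.767).

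The deposited files assign reads to individual transcripts, and the leading transcript of each member was examined in 21 tests over 7 genes; Hprt has a lone transcript, and Uox had libraries without reads. The most marked shift was in Aprt. Aprt-201, which encodes the full enzyme, took 94.5%, 90.9%, 76.9% and 86.3% of Aprt reads in the chow libraries, and 40.7% through 46.9% to 53.2% in wild-type mice on adenine. No library overlapped, and the difference was -39.69 percentage points (exact permutation p = 0.00476, adjusted p = 0.025). In labelled knockouts the share was 57.6% through 62.4% to 71.4%, above every wild-type adenine library (difference 15.85 points, exact permutation p = 0.00216, adjusted p = 0.025). In CPM, Aprt-201 averaged 85.6 on chow, 25.4 in wild type on adenine and 37.2 in labelled knockouts, so its fall was larger than that of the whole gene.

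The share that Aprt-201 lost was assigned to other forms. Aprt-207, annotated as a target of nonsense-mediated decay, went from 2.17% on chow to 16.3% in wild type and 11.3% in labelled knockouts. Aprt-209, a form of 560 bases that starts further downstream and holds 56.9% of the coding sequence of Aprt-201, went from 7.14% to 28.2% and 19.1%. These are descriptions, since only the leading transcript was tested. In the antibody experiment Aprt-201 took 66.5%, 65.6%, 67.5% and 75.0% with IgG and 78.0%, 83.7%, 85.2% and 79.1% with antibody, without overlap, and the 12.85 points did not pass after adjustment (exact permutation p = 0.0286, the smallest possible; adjusted p = 0.0857). Aprt-201 itself was level in CPM there, at 25.5 ± 0.634 with IgG and 24.9 ± 3.02 with antibody (SD, n = 4 each).

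**Figure D4:**
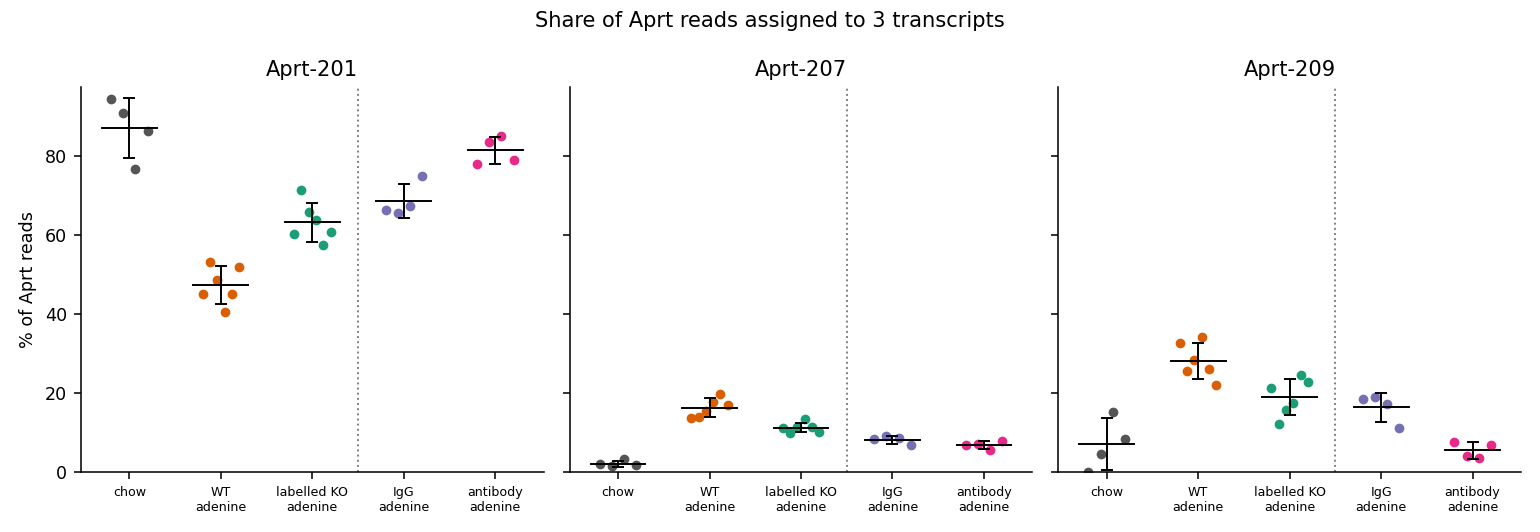
Share of Aprt reads (percent, vertical axis from 0) assigned to Aprt-201, Aprt-207 and Aprt-209 in each library, by group; points are libraries, bars the mean and SD. Aprt-201 averages 87.2% on chow, 47.5% in wild-type mice on adenine and 63.3% in labelled knockouts, and Aprt-207 averages 2.17%, 16.3% and 11.3%.

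The leading Xdh transcript was Xdh-206, which the annotation calls a retained intron form although its 7775 bases hold all 4005 coding bases of Xdh-201. Its share was 68.3% on chow and 81.3% in wild-type mice on adenine (difference 12.97 points, exact permutation p = 0.00476, adjusted p = 0.025). In CPM, Xdh-206 averaged 36.3 on chow and 89.9 on adenine. Xdh-208, a form annotated as protein coding whose 1768 bases hold 29.4% of the coding bases of Xdh-201, averaged 12.7 and 8.59 CPM, or 24.4% and 7.71% of Xdh reads. Xdh-201 itself held under 3% of Xdh reads over all libraries. The higher gene-level Xdh thus rested on reads assigned to Xdh-206. The same class led in Ampd2: Ampd2-208, with 4288 bases, held all 2472 coding bases of Ampd2-201 and went from 22.0% to 36.5% of the gene's reads (difference 14.48 points, exact permutation p = 0.00476, adjusted p = 0.025). Ampd2-201, whose start lay 3 bases from the start site of the promoter printed above, averaged 12.4 CPM on chow and 9.97 CPM on adenine, while Ampd2-202 and Ampd2-203, which start more than 1000 bases upstream of it, went from 6.34 to 20.7 and from 2.27 to 10.1 CPM. Ampd2-208, whose annotated start falls inside the printed window, went from 6.12 to 25.8 CPM. In the deposited assignment, the reads that Ampd2 gained thus went to transcripts other than Ampd2-201. The forms are alike, as Ampd2-202 and Ampd2-203 each hold 96.4% of the coding bases of Ampd2-201. The share of Ampd2-202 varied from 12.4% to 35.1% among the chow libraries. Only the share of Ampd2-208 was tested, so the part of each form in the rise is a description. Pnp-205, another retained intron form, went from 3.02% to 16.3% of Pnp reads.

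Retained intron forms gained share across the library as well: they held 4.22% to 5.17% of reads of nuclear genes on chow, 10.1% to 11.2% in wild-type mice on adenine, 8.33% to 9.15% in labelled knockouts, 5.42% to 6.33% with IgG and 4.01% to 4.54% with antibody. Their part in the shifts of Aprt, Xdh, Ampd2 and Pnp was not tested. The 3 shifts between adenine and chow lost their calls when any chow library was left out (adjusted p = 0.0625 each), where fewer libraries limit the smallest p, and with shares of TPM the Aprt shift was -44.34 points (adjusted p = 0.05), that of Xdh 2.18 points (adjusted p = 0.267) and that of Ampd2 6.35 points (adjusted p = 0.0818).

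The rest of the pathway was read from lists of related enzymes and carriers. The shares of all genes to read their counts against are 44.0% higher and 40.9% lower on adenine against chow, 25.1% and 21.3% in labelled knockout against wild type, and 27.2% and 28.0% in antibody against IgG. The medians over all genes were 0.07, -0.02 and -0.04 in that order (0.90, -0.12 and -0.23 on the TPM scale). Of 23 tested genes of purine interconversion and breakdown, 17 were lower and 3 higher in wild-type mice on adenine than on chow, with a median log2 change of -0.81; on the TPM scale 10 were higher and 4 lower, with a median of 0.21, below that of all genes. Ahcy, which splits S-adenosylhomocysteine into homocysteine and adenosine, went from 402 to 42.2 CPM (log2 change -3.25). Adssl1, an adenylosuccinate synthase, changed by -1.64. The rises were led by Nt5c1a, a cytosolic nucleotidase that makes adenosine from AMP, at 4.06 but only from 0.0505 to 0.909 CPM, and by Impdh1, the IMP dehydrogenase of guanine nucleotide synthesis, at 1.21. Between labelled knockout and wild type, 13 were higher and 1 lower with a median of 0.21 (3, 4 and 0.08 on the TPM scale), led by Ahcy (1.25) and Ada, adenosine deaminase (0.55), with Nt5c2 at -0.11. With antibody, 11 were higher and 3 lower with a median of 0.19 (4, 4 and -0.01 on the TPM scale), among them Ahcy (1.22), Adsl (0.70), Nt5c (-0.42) and Ada (-0.53).

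Xdh needs a molybdenum cofactor, and on the CPM scale most genes of its making were lower where Xdh was higher. Of 9 tested genes of urate breakdown and the cofactor, 8 were lower on adenine and 1 higher, with a median of -1.17 (4 lower, 1 higher and a median of -0.30 on the TPM scale). Mocs1, Mocs2, Mocs3 and Gphn, which build the cofactor, changed by -1.01, -1.59, -0.75 and -1.01, and Mocos, which adds the sulfur that Xdh requires, by -1.17; on the TPM scale Mocs1, Mocs3 and Gphn were at 0.04, 0.12 and 0.08. Suox, sulfite oxidase, another molybdenum enzyme, went from 62.7 to 11.4 CPM (-2.46), Aox3 changed by -1.73, and Aox1, an aldehyde oxidase related to Xdh, rose by 1.10. In labelled knockouts against wild type 5 were higher and none of the 9 lower, with a median of 0.22 (3 higher, none lower and 0.17 on the TPM scale); Suox was at 1.16 and Mocs1 at 0.43. With antibody 5 of 8 were higher and none lower, with a median of 0.60 (3 higher, none lower and 0.34 on the TPM scale); Suox was at 1.21 and Gphn at 0.86.

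Adenylate kinases, which exchange phosphates among AMP, ADP and ATP, were mostly lower on adenine on the CPM scale. Of 8 tested, 7 were lower and 1 higher, with a median of -0.91 (2 lower, 2 higher and a median of -0.05 on the TPM scale). Ak4, a mitochondrial member, went from 360 to 25.7 CPM (-3.81), Ak3 changed by -1.95 and Ak9 by 1.11. Between labelled knockout and wild type 6 were higher and 1 lower, with a median of 0.35 (5, 1 and 0.28 on the TPM scale); Ak4 was at 2.16, Ak5 at 0.65 and Ak9 at -0.45. With antibody 3 were higher and 1 lower, with a median of 0.10 (2, 1 and -0.17 on the TPM scale), so the share called was near that of all genes; Ak4 was at 2.35, Ak3 at 0.70 and Ak5 at -0.94. Ak4 and Adk thus both fell on adenine and rose in each intervention. Ahcy, Suox and all 10 proximal tubule markers did likewise, so the pattern is not particular to these kinases. The part of the markers in it was not tested.

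Carriers of bases and nucleosides were split. Among the 8 measured, 4 fell and 3 rose on adenine (1 and 5 on the TPM scale). The sodium-coupled nucleoside carriers Slc28a2 (1.77) and Slc28a3 (1.59) rose from low levels, while Slc29a3, an equilibrative nucleoside carrier of lysosomes, fell by 1.78 from 92.5 to 27.0 CPM, and Slc43a3, a purine base carrier, changed by -0.92. In labelled knockouts against wild type, Slc28a1 (0.95) and Slc29a3 (0.52) were among 3 higher and Slc28a3 (-0.47) was lower, near the shares of all genes. With antibody, of 7 tested, Slc28a1 (1.28) and Slc29a3 (0.97) were higher and Slc28a3 (-0.70) and Slc43a3 (-0.46) lower.

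**Figure D5:**
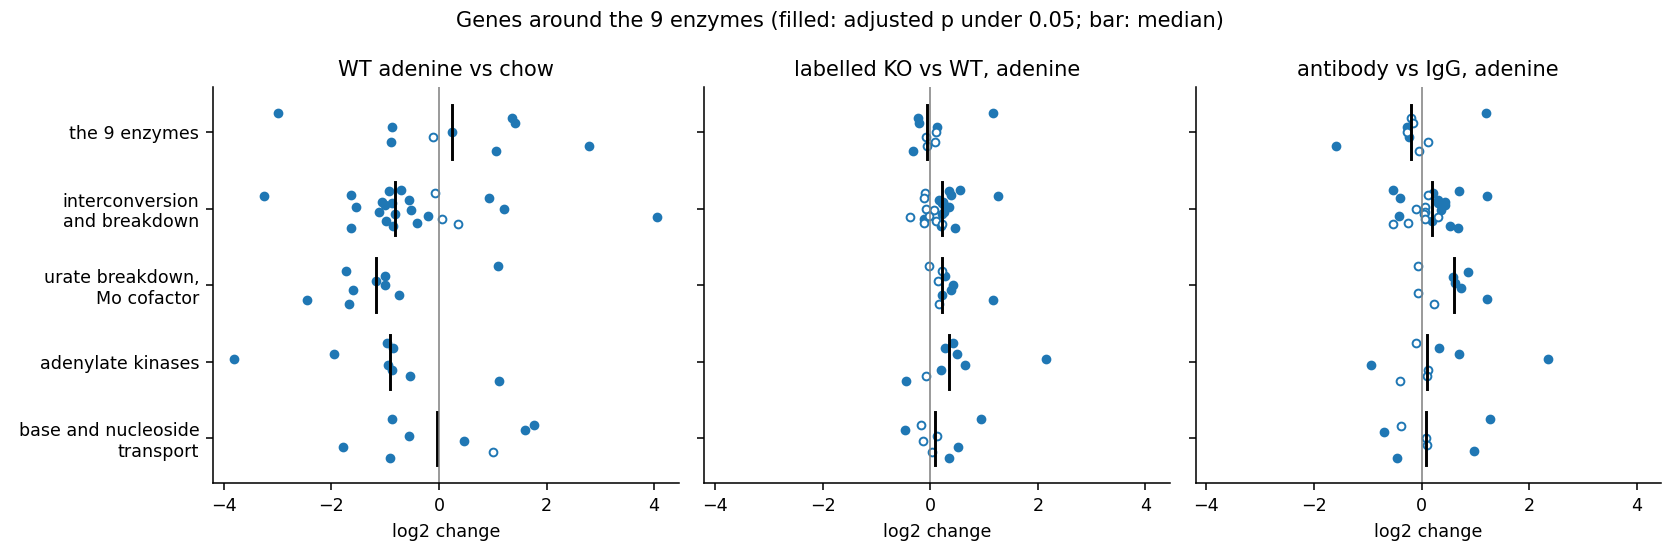
Log2 change (horizontal axis) of each tested gene of the 9 enzymes and of the 4 surrounding lists, in the 3 comparisons; points are genes, filled where the adjusted p is under 0.05, and the bar is the list median. The median of interconversion and breakdown lies at -0.81 on adenine against chow, and at 0.21 and 0.19 in labelled knockout against wild type and antibody against IgG.

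Finally, the protein-coding genes whose log2 CPM profile over the 16 libraries of the knockout experiment lay nearest to each enzyme were found among 11878 genes, by the root-mean-square distance between centred profiles, given as a description, since the libraries of a group are alike in many genes. Adk lay nearest to Aldh6a1 (0.08) and Hibadh (0.11), mitochondrial enzymes of valine breakdown, which had 604 and 672 CPM on chow and 80.6 and 83.4 CPM in wild-type mice on adenine. Egr1, an immediate early transcription factor, was among the nearest to Xdh (0.07). Aprt lay nearest to Srp68 and Slc35a4 (0.05 each), Pnp to Tusc2 (0.05) and Eif1ax (0.06), Ampd2 to Zfp523 and Prr3 (0.07 each), and Ampd3 to Itga3 (0.07) and Tyk2 (0.08). Hprt lay nearest to Arpc5 (0.07) and Erap1 (0.08), and Gda to Mpg (0.09) and Cyp4f13 (0.10). Uox had no close neighbour, the nearest being Tgfbr3l (0.36) and Usp35 (0.38).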

How the data were processed

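Kidney RNA was measured in 24 libraries, 16 in the knockout and 8 in the antibody experiment. Stranded libraries were made from total RNA, per the labels' protocols. Per the submitters' processing notes, Salmon was run with GRCm39, and FastQC, DESeq and DESeq2 were used; no version was stated. Estimated counts per transcript were deposited by the authors and need not be whole; the deposited TPM was scaled within each library, per the file headers. Effective lengths, per the file headers, served only as an offset and for levels per kilobase.

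Estimated counts were summed per gene through GENCODE M21 (115685 of 116755 transcripts matched, 99.1%; the rest held 0.439% to 0.527% of reads and were left out) and rounded. Under R 4.3.3, edgeR 4.0.16 was run with its quasi-likelihood F test after filterByExpr and TMM scaling, on 16 libraries (knockout experiment), 8 (antibody experiment) or 20 (all adenine libraries, for the difference between interventions), without covariates, and Benjamini-Hochberg adjusted p-values were called under 0.05. CPM values are TMM-scaled, and log2 changes carry standard errors derived from the F statistic. Ratios and transcript shares were compared by two-sided exact permutation tests over libraries. Intervals on read ratios cover counting error only.

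The 9 enzymes, the gene lists and the tests were chosen with earlier results of these data known. Named genes are all 9 enzymes, up to 2 called genes per direction, list and comparison with the largest change, and the 2 nearest profiles of each enzyme, of which 1 is not reported here; Mocs2, Mocs3, Mocos and the other forms of a transcript were named after their values were seen. Alternatives were RLE and upper-quartile scaling, no filter, DESeq2 1.42.0, limma 3.58.1 (voom), the length offset, a replicate block, fits of the 2 groups compared, leaving out each library, and, added after seeing the data, limma on log2(TPM + 0.1). Of 48 pairs of libraries within a group, none agreed within sampling noise (chi-square per gene at least 4.96). The statistics were tested on simulated data.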

Additional observations from a re-analysis of the deposited data

Results flagged for a closer look

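By a test of the difference itself, the changes in labelled knockout and with antibody differed for Aprt (log2 difference 0.34), Xdh (-0.37) and Uox (1.46). The former change is against wild type and the latter against IgG. Over all genes 37.9% differed, so 3 of 9 is not above the background. The intervention and the experiment cannot be told apart, and on the TPM scale 1 of the 9 was called. In the labelled knockouts, Xdh in replicate 1 stood apart from the other 5 libraries at 81.9 CPM, the others lying at 87.5 to 90.3 CPM. In the antibody group, Gda in replicate 3 stood apart at 14.7 CPM, the others lying at 10.1 to 10.5 CPM. By chance about 1 in 20 groups holds a library that stands apart in this way.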

How the results depend on the processing

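Of 28 changes called among the 9 enzymes, 17 kept their call and direction under every alternative run, and Adk did so in the 4 comparisons within experiments in which it was called. On the TPM scale the median of all genes moved to 0.90 (wild-type adenine against chow), 0.76 (labelled knockout on adenine against chow), -0.118 (labelled knockout against wild type), -0.232 (antibody) and 0.135 (difference), and with upper-quartile scaling to 0.298, 0.189, -0.084, -0.192 and 0.13. The share of calls that were higher went, in the same order, from 51.8%, 50.2%, 54.1%, 49.3% and 43.0% to 82.9%, 87.6%, 35.1%, 24.9% and 79.9% on the TPM scale and to 60.3%, 58.4%, 40.8%, 31.1% and 69.1% with upper-quartile scaling.

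On the TPM scale, log2 changes that turned were, against chow, Aprt 0.27, Hprt 0.75 and Pnp 0.16 in wild type and Aprt 0.21, Hprt 0.59 and Pnp 0.16 in labelled knockouts; Aprt -0.06 between labelled knockout and wild type; Pnp -0.02 with antibody; and Pnp 0.03, Adk 0.03 and Ampd3 0.05 in the difference, where 3141 genes and 1 of the 9 were called. With upper-quartile scaling, Hprt was 0.11 on adenine against chow, Pnp -0.04 with antibody, where 7 of the 9 were called, and Pnp 0.06, Adk 0.05, Ampd2 0.06 and Ampd3 0.04 in the difference. With the length offset, 3 of the 9 were called between labelled knockout and wild type, and Ampd2 was 0.05 with antibody. With shares of TPM, 1 leading-transcript test passed, and the shifts of Xdh were 2.39 points (labelled knockout) and 1.64 (antibody) and of Adk 8.85 (antibody). The causes were not tested.

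Leaving out each library gave 3 to 5 of the 9 called between labelled knockout and wild type (3 without labelled knockout replicate 2, 4 or 6), 2 to 5 with antibody (2 without IgG replicate 2) and 1 to 5 leading-transcript tests passed (1 without any of the chow libraries). Uncalled values that crossed 0 were Uox in labelled knockout against wild type (-0.16 to 0.10), Xdh with antibody (-0.08 to 0.03), Adk in the difference (-0.26 to 0.01), and the leading shares of Gda (-0.37 to 0.18) and Adk (-1.64 to 0.03) with antibody and of Ampd2 in labelled knockout against wild type (-0.31 to 1.03). Same-numbered libraries did not deviate together (correlations of -0.144 to 0.069). With the replicate block, 14108, 7523, 13251, 8277 and 5698 genes were called (wild-type adenine against chow, labelled knockout against wild type, labelled knockout against chow, antibody, difference), against 14406, 7872, 13585, 9072 and 6485 without it, and 3 of the 9 with antibody. Depth limits Uox, with 6 reads in the chow group.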

Other observations

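Enpp1 itself fell from a range of 49.9 to 55.8 CPM on chow to 20.9 to 24.9 CPM in wild-type mice on adenine (log2 change -1.30, adjusted p = 6.92e-14). In the antibody experiment, Enpp1 was 7.94, 8.86, 8.68 and 7.22 CPM with IgG and 9.51, 2.62, 3.26 and 17.4 CPM with antibody, so the antibody libraries fell on both sides of the IgG range (log2 change 0.00, 95% interval -1.04 to 1.03, adjusted p = 0.997). Adk, in contrast, was 110, 146, 133 and 154 CPM in those antibody libraries, above IgG in 4 of 4.

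Red blood cell markers were higher in labelled knockouts than in wild-type mice on adenine in 5 of 5, with sums of 204 to 492 against 12.5 to 35.7 CPM, while Ampd3, the AMP deaminase form of red blood cells, had a log2 change of -0.21 in the same comparison. Endothelial markers were lower on adenine in 8 of 8 and higher in labelled knockouts in 7 of 8. The minor Ampd3 transcript Ampd3-206 went from 0.59 CPM on chow to 3.19 CPM in wild-type mice on adenine, and Ampd3-201 from 24.2 to 63.3 CPM.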
